A study of Mus musculus with 4 samples.

Results

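The genes described here encode transcription factors of the Sox, forkhead and basic helix-loop-helix (bHLH) families, measured in mouse neocortex at embryonic day 16. They were chosen by gene name, with earlier results of these data known. The platform's gene symbols of 78 probes began with the family names, 6 of these (Sox3, Sox17, Sox18, Foxc1, Neurod2 and Olig1) were left out, and a probe needed a value on at least 3 arrays. This left 60 genes with 1 probe each, among 6041 genes named on the platform and 6856 probes in all. They comprised 13 Sox genes, 21 forkhead genes, 8 proneural and neuronal bHLH genes, 10 Hes, Hey and Id genes, 4 genes of the Olig, Bhlhe and Tcf groups, and 4 mesodermal bHLH genes. The probes of Ascl2, Atoh7, Bhlha15, Foxe3, Foxh1, Hand1, Hes3, Myf5, Neurog1, Olig3, Sox13 and Twist2 matched by name but were empty on every array.

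Each of 4 two-colour arrays set total RNA of a null mutant on the C57BL/6 background, described in the labels as synaptically silent, against a pool of RNA from 4 normal replicates of the same background, region and day. The null samples are labelled biological replicates. Null RNA carried the dye Cy3 on replicate 1 and Cy5 on replicates 2, 3 and 4, and the source name of replicate 1 gives day 14 where its other labels give day 16. The values are log2 ratios of the 2 channels, so that 1 stands for a 2-fold difference. Their numerator is not given in the sources used here, and signs are therefore printed as deposited, without saying which genotype was higher. If the ratio was Cy5 over Cy3 on every array, a difference between the genotypes has the opposite sign on replicate 1; if it was null over control, it has the same sign. Replicates 2 to 4 ran the same way in either case and carry the tests. Replicate 1 is printed beside them for the families and for the genes given on every array. Related and marker genes are given mostly by their means on replicates 2 to 4. Because the same pool was on every array, it counts as 1 control sample, and its own spread is not in the tests. Ratios hold no level, so the dissected region could not be checked against its marker genes, and fewer cells of a type cannot be told apart from less RNA per cell. Whether a gene's signal lay near background could not be seen either. Ratios of genes known mainly from tissues outside the cortex may therefore be noise.

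Sox proteins bind DNA through a high mobility group box. Those of the SoxB1 group hold neural progenitors in a dividing state, SoxC proteins act in newborn neurons, SoxD and SoxE proteins act in projection neurons and glia. Forkhead proteins share a winged helix fold and serve as markers of floor plate, mesenchyme, ependyma and neuronal layers, with the FoxO group acting downstream of insulin and growth factor signals. Proneural bHLH proteins pair with E proteins on E-boxes to drive neurogenesis in the cortical ventricular zone; Hes and Hey proteins, effectors of Notch, repress them, and Id proteins capture the E proteins.

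Promoters are shown for some of the genes around which the Sox and other leading results turn. They are the 250 bases before the annotated start site, 5′ to 3′ on the gene's strand, from RefSeq for GRCm38.p6. Capitals mark E-boxes, CANNTG, which read the same pattern on both strands and are bound by bHLH proteins. The first 5 belong to Sox genes with negative ratios on each of replicates 2 to 4, and Foxd2 and Atoh1 had the smallest p-values of the forkhead and bHLH genes.
Sox1: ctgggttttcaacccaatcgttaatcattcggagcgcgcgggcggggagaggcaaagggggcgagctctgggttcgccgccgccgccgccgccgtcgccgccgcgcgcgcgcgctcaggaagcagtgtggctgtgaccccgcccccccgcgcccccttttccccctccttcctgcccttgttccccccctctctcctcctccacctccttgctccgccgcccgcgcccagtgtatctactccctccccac
Sox4: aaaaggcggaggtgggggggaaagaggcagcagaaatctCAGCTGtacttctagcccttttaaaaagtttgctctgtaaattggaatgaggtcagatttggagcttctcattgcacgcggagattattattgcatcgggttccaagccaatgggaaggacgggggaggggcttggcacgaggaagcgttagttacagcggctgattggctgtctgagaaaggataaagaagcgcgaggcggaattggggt
Sox8: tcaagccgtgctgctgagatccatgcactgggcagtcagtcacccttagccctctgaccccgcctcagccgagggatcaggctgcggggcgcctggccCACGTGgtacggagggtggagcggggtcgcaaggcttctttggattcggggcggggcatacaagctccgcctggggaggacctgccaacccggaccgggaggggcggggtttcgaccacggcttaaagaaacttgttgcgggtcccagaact
Sox12: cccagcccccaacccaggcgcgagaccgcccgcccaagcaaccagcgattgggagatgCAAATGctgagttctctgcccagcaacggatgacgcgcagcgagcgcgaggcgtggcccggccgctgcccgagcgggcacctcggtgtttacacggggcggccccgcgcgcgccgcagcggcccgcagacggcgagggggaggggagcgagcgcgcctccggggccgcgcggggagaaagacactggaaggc
Sox15: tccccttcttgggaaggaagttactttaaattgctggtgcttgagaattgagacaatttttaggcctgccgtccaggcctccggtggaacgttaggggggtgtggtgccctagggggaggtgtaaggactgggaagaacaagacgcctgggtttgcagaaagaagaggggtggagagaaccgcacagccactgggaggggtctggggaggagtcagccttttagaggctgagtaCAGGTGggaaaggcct
Foxd2: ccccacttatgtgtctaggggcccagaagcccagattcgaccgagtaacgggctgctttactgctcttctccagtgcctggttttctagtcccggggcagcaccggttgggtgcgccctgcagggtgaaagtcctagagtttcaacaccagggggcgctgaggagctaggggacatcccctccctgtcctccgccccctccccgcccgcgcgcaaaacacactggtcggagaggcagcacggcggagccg
Atoh1: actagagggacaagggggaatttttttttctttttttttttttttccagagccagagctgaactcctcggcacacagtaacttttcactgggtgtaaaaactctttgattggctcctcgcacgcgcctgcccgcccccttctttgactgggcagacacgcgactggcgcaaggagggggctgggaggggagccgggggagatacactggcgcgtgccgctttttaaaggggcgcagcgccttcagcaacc

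These windows lie at chr8:12395269-12395518, plus strand (Sox1), chr13:28953700-28953949, minus strand (Sox4), chr17:25570687-25570936, minus strand (Sox8), chr2:152398047-152398296, minus strand (Sox12), chr11:69654787-69655036, plus strand (Sox15), chr4:114908899-114909148, minus strand (Foxd2) and chr6:64728875-64729124, plus strand (Atoh1). The single E-box of Sox4 begins 211 bases before the start site, that of Sox8 152 bases, that of Sox12 192 bases and that of Sox15 16 bases. The windows of Sox1, Foxd2 and Atoh1 do not hold these letters, nor do those of Foxa2 and Foxj2, which are not printed. Sox9, Hes2 and Id1 were not among the promoters found. An E-box was present in 26 of the 41 genes' promoters found in the table, or 63.4%, against 66.0% of 27025 promoters of that length. The Sox core ACAAAG or ACAATG, on either strand, was in 12 of 41 (29.3%, against 25.5% of all), and the forkhead core TAAACA in 6 of 41 (14.6%, against 3251 of the 27025). The N-box CACNAG, a site of Hes proteins, was in 7 of 41 (17.1%, against 36.7%). The RBPJ core TGGGAA of the Notch pathway was in 5 of 41 (12.2%, against 21.5%), namely Hes5, Hey2, Nhlh1, Sox4 and Sox15. The median GC content of the 41 windows was 62.8%, against 52.0% of all promoters, and its part in these shares was not tested. Letters such as these describe the windows and do not show binding.

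None of the 59 genes tested passed limma's moderated test against 0 at an adjusted p under 0.05, where Benjamini-Hochberg adjustment ran over 5720 probes, of which 0.0% passed. At an unadjusted p under 0.05 there were 9 genes, or 15.3%, against 9.67% of all probes. Of the 9, 7 were negative, or 11.9% of the 59 genes against 4.06% of all probes. The other 2 were positive, or 3.39% against 5.61%. The negative ones were Foxd2, Foxa2, Sox12, Foxj2, Sox15, Sox1 and Id1, and the positive ones Atoh1 and Hes2. The adjusted p of these 9 lay between 0.454 and 0.515. A single sign on replicates 2 to 4 was seen for 22 genes, or 37.3%, against 33.5% of all probes. Of these, 14 were negative, or 23.7% against 17.3% of all probes, and 8 positive, or 13.6% against 16.3%. The median of the 59 means was -0.094 against -0.016 over all probes, and 33 of 59 were negative, or 55.9% against 52.6%. At the median gene limma's 95% interval reached 0.44 to either side of the mean, or 1.36-fold, and a smaller mean left 0 inside it. Without replicate 2, 3 genes were at an unadjusted p under 0.05 (Sox14, Neurod4 and Foxa1), and none of the 9 was among them. Without replicate 3, 3 of the 9 kept such a p (Foxd2, Sox12 and Sox15), and without replicate 4, 5 did (Hes2, Foxj2, Atoh1, Foxa2 and Foxd2).

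**Figure D1:**
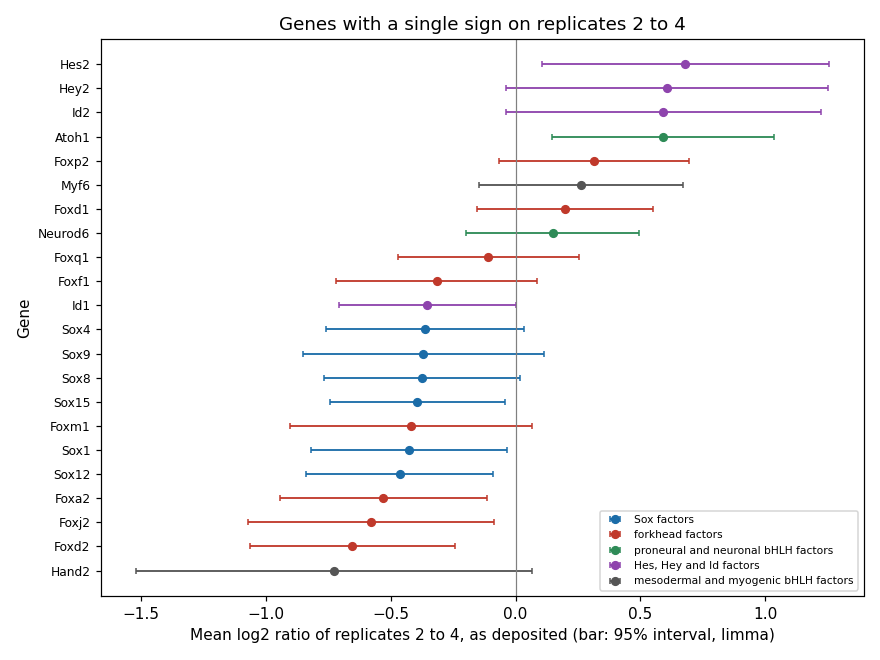
Mean log2 ratio of replicates 2 to 4, as deposited, with limma's 95% interval, for the 22 genes with a single sign on these 3 arrays, coloured by family. The intervals of 9 genes leave out 0, that of Id1 by the least, and the 6 Sox genes all lie below 0, between -0.46 and -0.36.

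Sox genes lay mostly on the negative side. Of 13 members, 11 had a negative mean on replicates 2 to 4, or 84.6% against 52.6% of all probes, and their median was -0.29 against -0.016. At an unadjusted p under 0.05 there were 3, all negative, or 23.1%, against 9.67% of all probes in either sign and 4.06% negative. A negative value on each of the 3 arrays was seen for 6, or 46.2%. Of all probes, 33.5% had a single sign there and 17.3% a negative one. Taking replicates 2, 3, 4 and 1 in turn, 10, 7, 12 and 7 Sox genes were negative. These were 76.9%, 53.8%, 92.3% and 53.8%, against 54%, 50%, 49% and 49% of all probes, so replicates 3 and 1 were near that share. The family median was -0.18, -0.045, -0.55 and -0.17 in the same order, so that replicate 4 was the lowest. Without replicate 4 the median of the means was -0.078, and with all 4 arrays, replicate 1 turned and a term for the dye, it was -0.0051.

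Sox12, a SoxC factor of neuronal differentiation, had -0.53, -0.25 and -0.61 on replicates 2, 3 and 4 and -0.45 on replicate 1. As deposited it was negative on every array. Its mean on replicates 2 to 4 was -0.46 ± 0.19 (SD, n = 3), 1.38-fold in size. Limma gave it an unadjusted p of 0.0231. With replicate 1 turned, its mean over 4 arrays was -0.23 ± 0.48. The other SoxC members differed from each other. Sox4, which acts with Sox11 in newborn neurons, had -0.24, -0.65 and -0.20 on replicates 2, 3 and 4 and -0.45 on replicate 1. It was also negative on every array as deposited. Its mean was -0.36 ± 0.25 on replicates 2 to 4 and, with replicate 1 turned, -0.16 ± 0.45 over 4 arrays. Sox11 had -0.095, 0.53 and -0.99 on replicates 2, 3 and 4 and 0.15 on replicate 1, so that its arrays fell on both sides of 0 and its mean of -0.19 was smaller than its SD of 0.76.

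Among the SoxB1 genes of neural progenitors, Sox1 had -0.18, -0.45 and -0.65 on replicates 2, 3 and 4 and -0.68 on replicate 1. Its mean of -0.43 ± 0.24 (SD, n = 3) had an unadjusted p of 0.0378 in limma. All 4 arrays were negative as deposited. With replicate 1 turned, the mean of Sox1 over 4 arrays was -0.15 ± 0.59. Sox2, the pluripotency and neural stem cell factor, had 0.16, 0.59 and -0.28 on replicates 2, 3 and 4 and 0.17 on replicate 1. Only replicate 4 of Sox2 was negative, and its mean was 0.16 ± 0.44. Sox14, a SoxB2 repressor expressed in ventral interneurons, had the highest mean of the family at 0.61 ± 0.64, with replicate 2 near 0 at -0.056 and replicate 3 at 1.22.

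The SoxE genes mark neural crest, astroglia and the oligodendrocyte lineage. Sox9, a factor of gliogenesis, had -0.24, -0.045 and -0.83 on replicates 2, 3 and 4 and -0.73 on replicate 1. As deposited it was negative on every array, with a mean of -0.37 ± 0.41. Sox8, its relative in the oligodendrocyte lineage, had a mean of -0.38 ± 0.23 and values between -0.64 and -0.22 on all 4 arrays. With replicate 1 turned, the means over 4 arrays were -0.096 for Sox9 and -0.20 for Sox8. Sox10, which drives myelin genes in oligodendrocytes, had -0.51, 0.36 and -0.71 on replicates 2, 3 and 4 and 0.080 on replicate 1, and replicate 3 opposed replicates 2 and 4. The mean of Sox10 was -0.29 ± 0.57, and it was -0.18, -0.61 and -0.077 without replicates 2, 3 and 4 in turn.

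The remaining Sox genes belong to other groups. Sox5, the SoxD factor that sets the order in which deep-layer neurons arise, had -0.094, 0.16 and -0.55 on replicates 2, 3 and 4 and -0.17 on replicate 1, and Sox6, its relative in interneurons, had a mean of -0.072 ± 0.24. Sox15, a SoxG gene known from muscle precursors, had -0.51, -0.29 and -0.38 on replicates 2, 3 and 4 and 0.16 on replicate 1. It was negative on replicates 2 to 4, with a mean of -0.39 ± 0.11 (SD, n = 3) and an unadjusted p of 0.0335 in limma, and replicate 1 lay on the other side of 0. Sox7, an endothelial SoxF gene, had a mean of -0.16 ± 0.35; replicate 2, at 0.24, stood apart from the other arrays, which lay between -0.40 and -0.32.

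**Figure D2:**
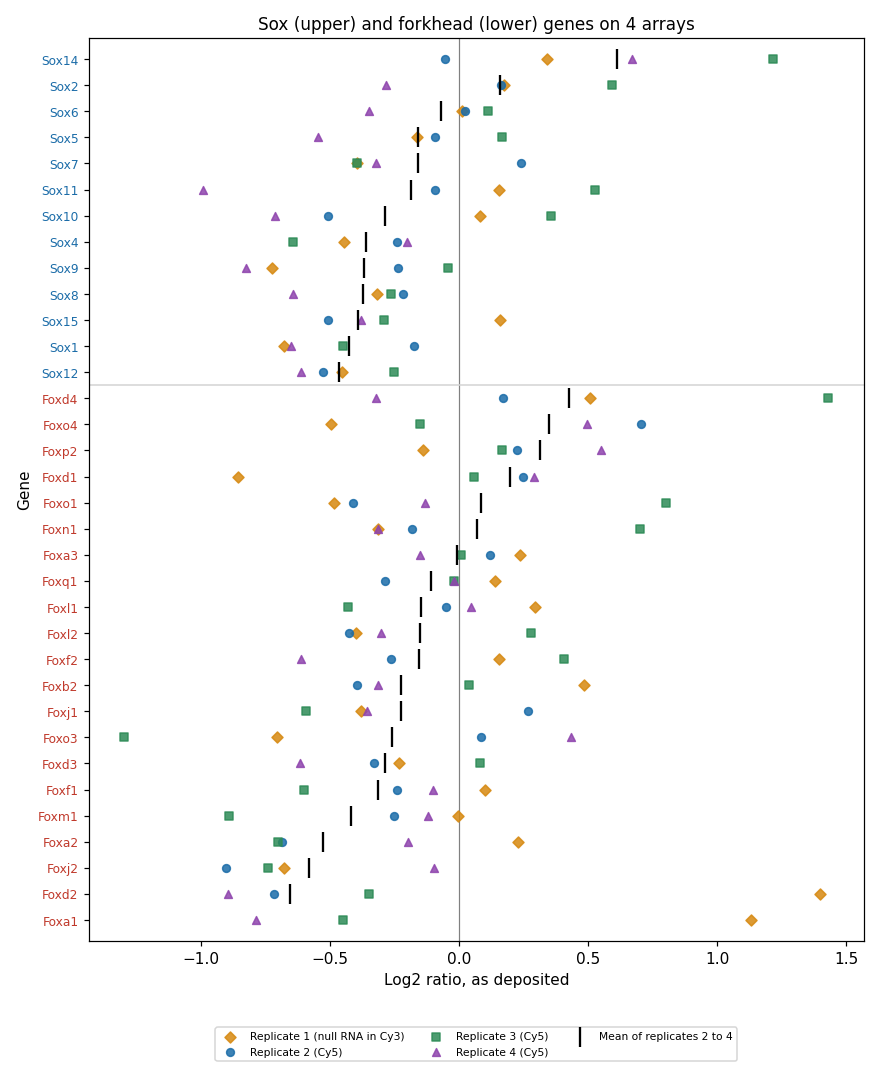
Log2 ratio as deposited of each Sox gene (13, upper) and forkhead gene (21, lower) on replicate 1 (diamonds, null RNA in Cy3) and replicates 2 to 4 (other symbols, null RNA in Cy5), with the mean of replicates 2 to 4 as a bar. Sox12, Sox1, Sox8, Sox9 and Sox4 are below 0 on all 4 arrays, while Foxd2 and Foxa1 lie far above 0 on replicate 1 and below 0 elsewhere; Foxa1 has no value on replicate 2 and no bar.

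Forkhead genes also leaned to the negative side on replicates 2 to 4. Of 20 members tested, 14 were negative, or 70.0% against 52.6% of all probes, with a median of -0.15. Those at an unadjusted p under 0.05 numbered 3, again all negative, or 15.0%. Of all probes, 9.67% were at that p in either sign and 4.06% were negative. On each of the 3 arrays 6 members were negative, or 30.0% against 17.3%, and 2 positive, or 10.0% against 16.3%. The median was -0.096 over 4 arrays with replicate 1 turned, -0.073 as deposited and -0.034 with a term for the dye. Replicate 1 took the sign opposite to the mean for 13 of the 20, against 50.3% of all probes.

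Foxd2, a factor of mesenchyme and kidney, had -0.72, -0.35 and -0.90 on replicates 2, 3 and 4 and 1.40 on replicate 1. Its 3 arrays with null RNA in Cy5 were all negative, and as deposited replicate 1 lay on the other side of 0. The mean was -0.66 ± 0.28 (SD, n = 3), or 1.57-fold in size, and limma gave it an unadjusted p of 0.00834 and an adjusted one of 0.454. With replicate 1 turned, the mean over 4 arrays was -0.84 ± 0.43, at an adjusted p of 0.387 in limma, and as deposited it was -0.14 ± 1.05. Foxd1, its relative of kidney stroma and retina, lay on the other side of 0, with replicates 2 to 4 between 0.058 and 0.29 and replicate 1 at -0.86. Foxd3, a neural crest factor, had a mean of -0.29 ± 0.35, and Foxd4 one of 0.42 ± 0.90.

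The FoxA genes encode pioneer factors of endoderm and the ventral midline. Foxa2, which specifies the floor plate and midbrain dopamine neurons, had -0.69, -0.70 and -0.20 on replicates 2, 3 and 4 and 0.23 on replicate 1. All 3 Cy5 arrays were negative, with a mean of -0.53 ± 0.29 (SD, n = 3) and an unadjusted p of 0.0209 in limma. Foxa1, which shares many of its sites, had -0.45 and -0.79 on replicates 3 and 4 and 1.13 on replicate 1, and was not in the 3-array test for want of a value on replicate 2. When a missing value was allowed, its mean over replicates 3 and 4 was -0.62, at an unadjusted p of 0.0325 in limma. Foxa3, the third member, had a mean of -0.0089 ± 0.14, on both sides of 0.

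Foxj2, a broadly expressed forkhead gene, had -0.90, -0.74 and -0.10 on replicates 2, 3 and 4 and -0.68 on replicate 1. Each array was negative as deposited, replicate 4 only slightly. The mean was -0.58 ± 0.43 (SD, n = 3) with an unadjusted p of 0.0281 in limma. With replicate 1 turned, the mean of Foxj2 over 4 arrays was -0.27. Foxj1, the master regulator of motile cilia in ependyma, had a mean of -0.23 ± 0.44 with replicate 2 on the other side of 0. Foxm1, an activator of mitotic genes in dividing cells, had a mean of -0.42 ± 0.41 and was negative on all 4 arrays, though only -0.0042 on replicate 1.

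Foxp2, a factor of deep-layer cortical neurons and striatum, had 0.22, 0.17 and 0.55 on replicates 2, 3 and 4 and -0.14 on replicate 1. Its 3 Cy5 arrays were positive, replicate 1 was negative, and the mean was 0.31 ± 0.21. The FoxO genes, whose proteins are kept out of the nucleus by Akt, were on both sides of 0. Foxo1 had -0.41, 0.80 and -0.13 on replicates 2, 3 and 4 and -0.49 on replicate 1, and Foxo3 had 0.083, -1.30 and 0.43 on replicates 2, 3 and 4 and -0.71 on replicate 1. Replicate 3 was the extreme array of both, above 0 for Foxo1 and below 0 for Foxo3. Foxo4 had a mean of 0.35 ± 0.45, with replicate 3 negative and replicates 2 and 4 positive.

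Other forkhead genes are known mainly from tissues outside the cortex. Foxf1 and Foxf2, factors of gut and lung mesenchyme, had means of -0.32 and -0.16, and Foxf1 was negative on each of replicates 2 to 4. Foxb2 had a mean of -0.23, Foxl1 of the gut stroma -0.15, Foxl2 of the ovary -0.15, and Foxq1 -0.11. Foxn1, the thymic epithelial factor, had a mean of 0.067 that joined 0.70 on replicate 3 with values between -0.32 and -0.18 on the other arrays.

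Proneural and neuronal bHLH genes lay on the positive side. Of 8 members, 7 had a positive mean on replicates 2 to 4 and 1, or 12.5%, a negative one, against 52.6% of all probes, and their median was 0.21. At an unadjusted p under 0.05 there was 1, or 12.5%, near the 9.67% of all probes. Their median on single arrays was 0.33, 0.28 and 0.23 for replicates 3, 4 and 1, but -0.027 for replicate 2. Without replicate 2 the median of the means was 0.34, without replicate 3 it was 0.14, and with a term for the dye it changed sign, to -0.032.

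Atoh1, the proneural gene of cerebellar granule cells and hair cells, had 0.73, 0.84 and 0.20 on replicates 2, 3 and 4 and 0.025 on replicate 1. It was positive on every array, with a mean of 0.59 ± 0.34 (SD, n = 3), or 1.51-fold in size, and an unadjusted p of 0.0178 in limma. Neurog2, the main proneural gene of the dorsal telencephalon, had -0.0016, 0.45 and 0.41 on replicates 2, 3 and 4 and 0.35 on replicate 1. Replicate 2 of Neurog2 was at about 0 and the other arrays were alike, with a mean of 0.29 ± 0.25 for replicates 2 to 4. Neurog3, the endocrine gene of the pancreas, had a mean of 0.13 ± 0.15 and replicate 1 at -0.82.

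The NeuroD genes act after the proneural genes, in differentiating neurons. Neurod1 had -0.081, 0.061 and 0.77 on replicates 2, 3 and 4 and 0.23 on replicate 1. Neurod6, a marker of cortical projection neurons, had 0.18, 0.22 and 0.045 on replicates 2, 3 and 4 and 0.32 on replicate 1. Neurod6 was positive on every array as deposited, with a mean of only 0.15 ± 0.091. With replicate 1 turned, its mean over 4 arrays was 0.030. Neurod4 had a mean of 0.69 ± 0.97, from -0.17 on replicate 2 to 1.74 on replicate 3, and stood at 2.01 on replicate 1. Its mean was 0.16 without replicate 3, 1.02 over 4 arrays as deposited, 0.014 with replicate 1 turned and -0.66 with the dye term as well. Nhlh1, which is switched on in newborn neurons, had the only negative mean of this family, -0.43 ± 0.93, made by replicate 3 at -1.46, while replicate 4 was at 0.35. Ascl3, a gene known from salivary glands, had a mean of 0.16 ± 0.22.

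**Figure D3:**
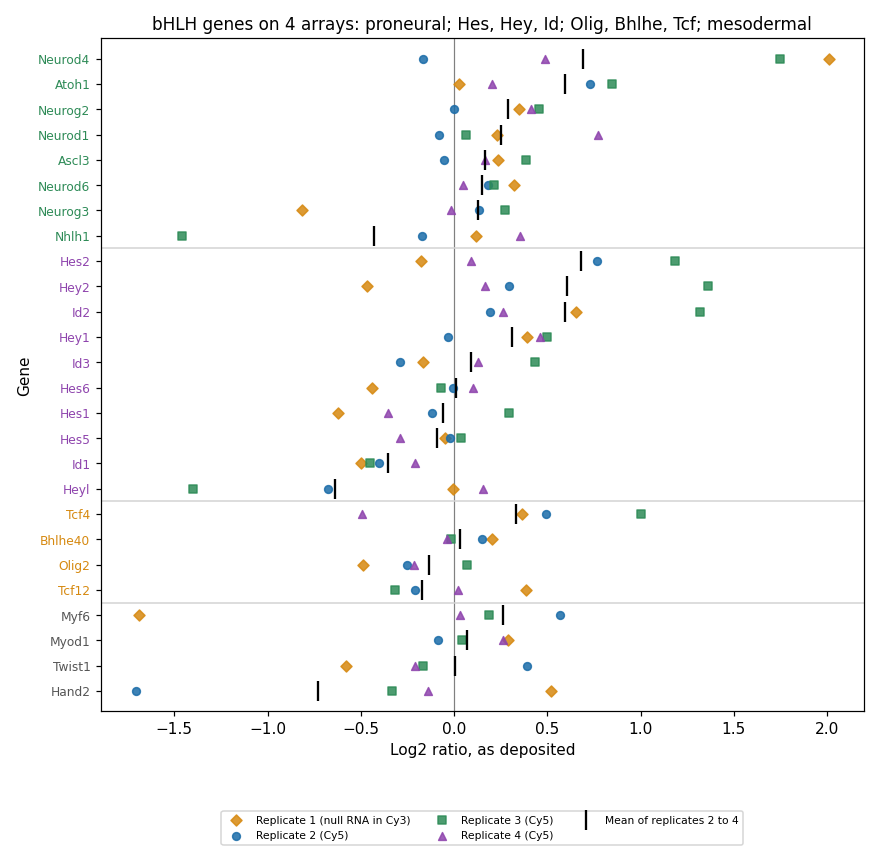
Log2 ratio as deposited of each bHLH gene on replicate 1 (diamonds, null RNA in Cy3) and replicates 2 to 4 (other symbols, null RNA in Cy5), with the mean of replicates 2 to 4 as a bar, in blocks for proneural, Hes, Hey and Id, Olig, Bhlhe and Tcf, and mesodermal genes. Among Hes, Hey and Id genes, Hes2, Hey2 and Id2 lie above 0 and Id1 below 0 on each of replicates 2 to 4, and replicate 3 is the array farthest from 0 for Hes2, Hey2, Id2 and Heyl.

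The Hes, Hey and Id genes did not share a direction. Of 10 members, 6 had a positive and 4 a negative mean on replicates 2 to 4, and the median was 0.049. Means beyond 0.5 in size were seen for 4, or 40.0% against 8.72% of all probes. The median took the opposite sign without replicate 3, at -0.017, with array weights, at -0.033, and over 4 arrays as deposited, at -0.029. Replicate 1 was negative for 8 of the 10, or 80.0% against 49.4% of all probes.

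Hes1 and Hes5, the principal Notch effectors of cortical progenitors, had means near 0. Hes1 had -0.12, 0.30 and -0.35 on replicates 2, 3 and 4 and -0.62 on replicate 1, and Hes5 had -0.025, 0.035 and -0.29 on replicates 2, 3 and 4 and -0.049 on replicate 1. Their means were -0.059 ± 0.33 and -0.094 ± 0.17 (SD, n = 3). Hes6, which opposes Hes1, had a mean of 0.0084 ± 0.088 and the smallest SD between arrays of all 59 genes. Hes2, a repressor of the same family, had 0.77, 1.18 and 0.090 on replicates 2, 3 and 4 and -0.18 on replicate 1. Its 3 Cy5 arrays were positive but unequal, with a mean of 0.68 ± 0.55 and an unadjusted p of 0.0279 in limma, and replicate 1 was negative.

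The Hey genes are Notch effectors best known from heart and vessels. Hey2 had a mean of 0.61 ± 0.65 with 1.36 on replicate 3, and Hey1 had 0.31 ± 0.30, with 3 arrays between 0.39 and 0.50 and replicate 2 at -0.032. Heyl had -0.64 ± 0.78, negative on replicates 2 and 3 and positive on replicate 4. The means of both rested on replicate 3, without which Heyl had -0.26 and Hey2 0.23. Without replicate 4 they had -1.04 and 0.83, and without replicate 2 -0.62 and 0.76.

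Id genes answer to bone morphogenetic proteins. Id1 had -0.40, -0.45 and -0.21 on replicates 2, 3 and 4 and -0.50 on replicate 1. It was negative on every array with little spread, with a mean of -0.36 ± 0.13 (SD, n = 3) and an unadjusted p of 0.0498 in limma. The p of Id1 was above 0.05 with centred arrays, a common scale, averaging by gene, a robust prior, a missing value allowed and each replicate left out, and its mean was -0.14 over 4 arrays with replicate 1 turned. Id2, which is also expressed in cortical neurons, had 0.19, 1.32 and 0.26 on replicates 2, 3 and 4 and 0.65 on replicate 1. Id2 was positive on every array as deposited, and its mean of 0.59 ± 0.63 rested on replicate 3. With replicate 1 turned, the mean of Id2 over 4 arrays was 0.28. Id3 had -0.29, 0.43 and 0.13 on replicates 2, 3 and 4 and -0.17 on replicate 1. Id1 and Id2 thus had opposite signs on all 4 arrays, and Id3 crossed 0.

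None of the Olig, Bhlhe and Tcf genes had a single sign on replicates 2 to 4. Olig2, the determinant of oligodendrocytes and motor neurons, had -0.25, 0.067 and -0.22 on replicates 2, 3 and 4 and -0.49 on replicate 1, with a mean of -0.13 ± 0.18. Tcf4, an E protein abundant in cortical neurons, had 0.49, 1.00 and -0.50 on replicates 2, 3 and 4 and 0.36 on replicate 1, and replicate 4 opposed the others. Tcf12, another E protein, had -0.21, -0.32 and 0.019 on replicates 2, 3 and 4 and 0.38 on replicate 1. Bhlhe40, a repressor of the clock and hypoxia responses, had 0.15, -0.018 and -0.037 on replicates 2, 3 and 4 and 0.20 on replicate 1. Its 4 arrays lay between -0.037 and 0.20, with a mean of 0.031 ± 0.10.

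The mesodermal bHLH genes are markers of muscle, heart and mesenchyme rather than of cortex. Hand2, a factor of heart and sympathetic neurons, had -1.71, -0.33 and -0.14 on replicates 2, 3 and 4 and 0.52 on replicate 1. Its mean of -0.73 ± 0.85 rested on replicate 2, without which it was -0.24. Over 4 arrays it was -0.68 with replicate 1 turned and -0.42 as deposited. Myf6, a muscle determination gene, had 0.57, 0.19 and 0.032 on replicates 2, 3 and 4 and -1.69 on replicate 1. As deposited, replicate 1 lay far below the others; its mean over 4 arrays was -0.23 as deposited, 0.62 with replicate 1 turned, and 0.98 with the dye term as well, at an unadjusted p of 0.00117 and an adjusted p of 0.369 in limma. Myod1 and Twist1, the regulators of muscle and of cranial mesenchyme, had means of 0.071 and 0.0038.

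**Figure D4:**
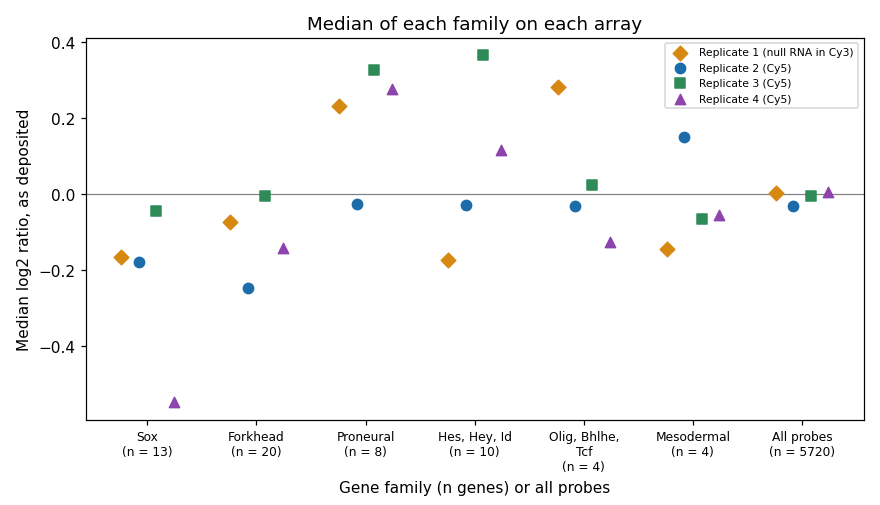
Median log2 ratio as deposited of each family on each array, with the number of genes, beside the median of all 5720 probes. Sox and forkhead medians are below 0 on all 4 arrays, though the forkhead one on replicate 3 is -0.0059, near the all-probe -0.0040. Proneural medians are above 0 on all but replicate 2, and the all-probe medians lie between -0.031 and 0.0053.

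Replicate 1 was set beside the other arrays in both possible directions. Its sign was opposite to the mean of replicates 2 to 4 for 27 of 59 genes, or 45.8% against 50.3% of all probes. By family this was 4 of 13 Sox, 13 of 20 forkhead, 2 of 8 proneural and 4 of 10 Hes, Hey and Id genes. Of the 22 genes with a single sign on replicates 2 to 4, 11 had the opposite sign on replicate 1 and 11 the same, where the opposite sign was seen for 53.9% of such probes in all. The 11 with the opposite sign were Foxa2, Foxd1, Foxd2, Foxf1, Foxp2, Foxq1, Hand2, Hes2, Hey2, Myf6 and Sox15. The other 11 were Atoh1, Foxj2, Foxm1, Id1, Id2, Neurod6, Sox1, Sox12, Sox4, Sox8 and Sox9, which kept 1 sign on all 4 arrays as deposited.

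**Figure D5:**
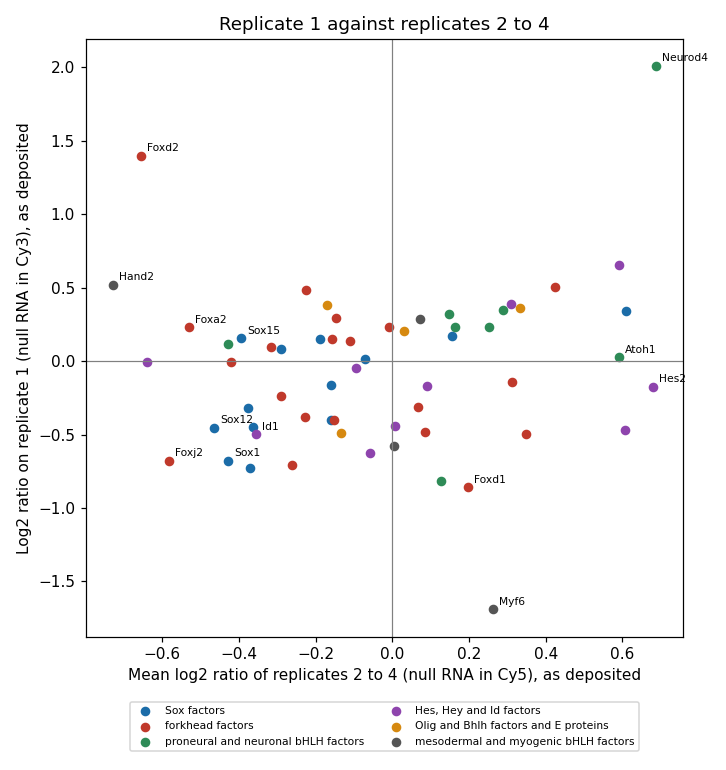
Log2 ratio on replicate 1 (vertical axis, null RNA in Cy3) against the mean of replicates 2 to 4 (horizontal axis, null RNA in Cy5), both as deposited, for the 59 genes with values on all 4 arrays, coloured by family. Foxd2, Hand2 and Foxa2 lie upper left, Myf6 and Foxd1 lower right, Sox1, Sox12, Foxj2 and Id1 lower left, and Neurod4 upper right.

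The fits over 4 arrays were made with replicate 1 turned, as deposited, and turned with a term for the dye. With replicate 1 turned, 7 genes were at an unadjusted p under 0.05 in limma, or 11.9% against 8.44% of all probes. The 4 negative ones, or 6.78% against 3.15% of all probes, were Foxd2, Foxa2, Sox15 and Hand2. The 3 positive ones, or 5.08% against 5.29%, were Hey2, Hes2 and Atoh1. Limma's smallest adjusted p was 0.387. With replicate 1 as deposited there were 11, or 18.6% against 7.12%, all with an adjusted p of 0.663. The 7 negative ones, or 11.9% against 3.64% of all probes, were Foxj2, Sox12, Sox1, Id1, Sox4, Sox9 and Sox8. The 4 positive ones, or 6.78% against 3.48%, were Id2, Neurod4, Sox14 and Atoh1. All 4 arrays shared 1 sign for 11 genes with replicate 1 turned, or 18.6% against 18.1% of all probes, and for 11 as deposited, against 15.5%. Of the 11 at that p as deposited, 6 were Sox genes, of which Sox14 was the positive one. Atoh1 was at that p with replicate 1 turned and as deposited, but not with the dye term, where its mean was 0.28. With the dye term the genes at that p were Foxd2 at -1.03, Myf6 at 0.98, Foxd1 at 0.53 and Neurog3 at 0.47, and the smallest adjusted p was 0.355 in limma.

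Genes that work with these factors were taken from lists of textbook genes, chosen with earlier results of these data known. Of 22 measured Notch pathway genes, 2 were positive and 2 negative at an unadjusted p under 0.05 in limma, with a median of 0.020. Of these 4, the 2 with the smallest p were both positive. Psen2, a subunit of gamma-secretase, had 0.58 ± 0.19 (SD, n = 3), and the ligand Dll4 had 0.68 ± 0.45. The 2 negative ones are not named here. Of 11 corepressors of Hes proteins, only Tle3, a Groucho protein, reached such a p, at -0.73 ± 0.72. The 16 genes of the BMP and TGF-beta inputs to Id genes had 9 positive and 7 negative means, with a median of 0.080, and only the ligand Bmp2 reached such a p, at -0.54 ± 0.078. The 18 targets of proneural factors had 7 positive and 11 negative means, with a median of -0.039. At such a p there were 2, both positive, the ephrin receptor Epha5 at 0.44 ± 0.16 and the microtubule protein Dcx at 0.40 ± 0.21. Among 23 FoxO inputs and targets there were also 2, the kinase Akt2 at -0.53 ± 0.22 and the insulin receptor substrate Irs1 at 0.43 ± 0.24. Sox partners and targets had 1 positive and 3 negative of 20, with a median of -0.13. Those with the smallest p were both negative. The neural POU factor Pou3f2 had -0.52 ± 0.10 and the neuregulin receptor Erbb3, a target of Sox10, -1.18 ± 1.10. On replicate 1 as deposited, Psen2, Dll4, Epha5 and Irs1 had the opposite sign to their means, and the other related genes named here the same sign. Over all 5051 genes 9.46% were at such a p, and none of these genes passed after adjustment over all genes.

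Markers of cell types that the dissection could hold were read on the same arrays, where 2674 of all 5051 genes had a negative mean, with a median of -0.019. At an unadjusted p under 0.05 in limma there were 5 of 12 microglia and leukocyte markers, all positive, against 9.46% of all genes. So were 5 of 15 projection neuron markers, 4 of them negative, and 5 of 16 vessel markers, all negative. These vessel markers included Sox17 and Sox18, with means of -1.41 and -0.48 on replicates 2 to 4. Both are Sox genes that were left out of the Sox family by name, so the vessel count is not free of Sox genes. Meningeal and mesenchymal markers had 4 of 15 at that p, 3 each were found among 13 progenitor, 8 choroid plexus and ependyma and 11 striatal markers, 2 each among 16 interneuron, 7 blood and 12 diencephalic markers, 1 each among 7 glial and 10 muscle and cartilage markers, and 0 among 4 skin markers. Projection neuron markers were negative for 14 of 15 measured, with a median of -0.10, and neural progenitor markers for 7 of 13, with a median of -0.047. Astroglia and oligodendrocyte markers, beside which Sox8, Sox9 and Sox10 are read, were negative for 4 of 7, and their medians ran from -0.28 on replicate 2 to 0.30 on replicate 4. Vessel markers were negative for 11 of 16, with medians between -0.28 and -0.24 on replicates 2 to 4, and meningeal and mesenchymal markers for 11 of 15, with medians between -0.24 and -0.070. On replicate 1 as deposited these medians were -0.14 and -0.16 in turn. Markers of diencephalon and hypothalamus were negative for 9 of 12, with medians between -0.25 and -0.18 on replicates 2 to 4 and 0.097 on replicate 1. Microglia and leukocyte markers were positive for 9 of 12, with medians between 0.28 and 0.31 on replicates 2 to 4 and -0.085 on replicate 1. Muscle and cartilage markers were negative for 7 of 10. Blood markers were negative for 5 of 7, interneuron markers for 10 of 16, striatal markers for 5 of 11, choroid plexus and ependyma markers for 4 of 8 and skin markers for 3 of 4. The part of these markers in the ratios of the transcription factors was not tested.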

How the data were processed

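The deposited values were the authors' log2 ratios, 1 column per array; the log base was taken from the size of the values, while numerator, background correction and normalization were not given in the sources used here. The number of value columns not used was 0. Array medians lay between -0.031 and 0.0044 and SDs between 0.40 and 0.63, with 5777 to 5873 probes measured per array; the number of arrays limits the precision. All 60 genes matched RefSeq of GRCm38.p6 by Entrez ID, and 0 symbols changed. The genes and lists were chosen with earlier results of these data known. The mutated gene is not reported here.

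In R 4.3.3, limma 3.58.1 (lmFit, then eBayes) tested means of replicates 2 to 4 against 0, two-sided, for the 5720 probes with all 3 values, with Benjamini-Hochberg adjustment at 0.05. A p is printed for genes under an unadjusted 0.05. Values on every array were given for those, for up to 2 genes per family with the smallest p and a single sign, and for preset cortical genes. Related and marker lists used probes averaged by symbol, without the 60 genes, and up to 2 genes per list. Genes left out by name could still be in a list, as Sox17 and Sox18 were among the vessel markers. Promoters were found for 41 genes, the first listed start of each. On simulated data for 3 arrays (5720 probes, 200 changed), the fit found 54.7% of 2-fold and 96.4% of 4-fold changes, with 4.96% false calls. The simulated noise was independent and equal on every array, without the spread of the shared pool. The real arrays had SDs between 0.40 and 0.63, so these rates need not hold for them. Alternatives covered the sign of replicate 1, a dye term, centring, scale, missing values, averaging, the variance prior, array weights, extreme probes, an adjusted p of 0.1 and each replicate left out.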

Additional observations from a re-analysis of the deposited data

Results flagged for a closer look

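Over the 4 arrays as deposited, 1 array lay apart from the other three for 2 of 59 genes, with a gap past Dixon's limit. Sox7 had 0.24 on replicate 2 against -0.40 to -0.32 elsewhere, a gap of 0.884 of its range. Foxn1 had 0.70 on replicate 3 against -0.32 to -0.18, a gap of 0.87. With the sign of replicate 1 turned, no gene was set apart in this way. Chance gives about 1 in 20 genes.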

How the results depend on the processing

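No gene of the 59 passed at an adjusted p under 0.05 under any alternative, while the number of all probes that did so went from 0 to 2 with replicate 1 as deposited, 1 with the dye term, 1 with a robust variance prior and 3 with array weights, and was 1 at an adjusted p of 0.1. Of the 9 genes at an unadjusted p under 0.05, 8 or 9 kept that p under each of 7 alternatives (centring, a common scale, averaging by gene, a robust prior, array weights, no extreme probes, and probes that lack a value kept), 5 with replicate 1 turned, 5 with it as deposited and 1 with the dye term. The gene lost was Id1 under 5 of the 7 and Sox1 with array weights. Negative genes at that p numbered 7 in the main setting, 4 with replicate 1 turned, 1 with the dye term, 11 with array weights and 1 to 6 when a replicate was left out, the 1 without replicate 2. Positive ones numbered 2, against 4 with replicate 1 as deposited, 5 on a common scale, 4 with array weights and 1 to 4 when a replicate was left out, the 1 without replicate 3 and the 4 without replicate 4. With array weights 15 of the 59 genes were at that p, against 18.7% of all probes. The 22 genes of single sign became 11 with either sign of replicate 1, and 33 to 36 without a replicate, where fewer arrays had to share a sign. The dye term reversed Sox1 to 0.13, Foxj2 to 0.049 and Id1 to 0.072. It took the Sox median to -0.0051, the forkhead median to -0.034 and the proneural median to -0.032. That fit weighs replicate 1 as much as replicates 2 to 4 together, so these shifts follow from the values of replicate 1. Whether the dye or another trait of replicate 1 lay behind those values was not tested. Family medians ranged over the left-out replicates from -0.42 to -0.078 (Sox, the latter without replicate 4), -0.18 to -0.14 (forkhead), 0.14 to 0.34 (proneural), -0.017 to 0.15 (Hes, Hey and Id), -0.051 to -0.014 (Olig, Bhlhe and Tcf) and -0.039 to 0.089 (mesodermal), the last reaching -0.18 with replicate 1 as deposited. Over the left-out replicates, the median of the means of all transcription factors tested ran from -0.088 to 0.0051, the latter without replicate 4. On a common scale it was -0.10. No paired analysis was possible because all arrays form 1 group against 1 shared pool.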
